A study of Homo sapiens with 6 samples.

Results

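The genes described here encode ribosome biogenesis and nucleolar factors, together with MYC. They were chosen by gene symbol among the protein-coding genes of the count data: the UTP, NOP, NOC and RRP genes of ribosome assembly, the POLR1 subunits of RNA polymerase I, the core proteins of the small nucleolar RNPs (snoRNPs), and single factors such as NCL, NPM1 and DDX21. This gave 59 genes, here called the members, of 30618 genes in the counts. The cells were ARPE-19, an established human retinal pigment epithelial (RPE) line. In both groups the cells were kept in 50 mM glucose as a model of diabetic retinopathy and were transfected with an siRNA: a non-targeting control in the NC group and an siRNA against EIF1 in the siEIF1 group, with 3 independent biological replicates each. EIF1 is the initiation factor that helps the scanning ribosome to recognise the start codon. The methods of the study give 1 siRNA sequence against EIF1, and no library without high glucose was analysed here.

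Ribosomes are built in the nucleolus. RNA polymerase I transcribes the ribosomal DNA into a long precursor, and the small-subunit processome, a large assembly of UTP proteins and the U3 snoRNP, folds and cuts the part that becomes the small subunit. Other factors assemble the large subunit, while snoRNPs guide the chemical modification of the rRNA, box C/D snoRNPs its methylation and box H/ACA snoRNPs its pseudouridylation. MYC is a transcription factor known to raise the expression of many of these genes, in part by binding with MAX to the E-box sequence.

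The 6 libraries held between 26499929 and 31431479 counts, and every siEIF1 library was deeper than every NC library. The part of this difference in depth in the results was not tested, apart from scaling each library. EIF1 fell to 8.22% of its NC level: its FPKM (fragments per kilobase of transcript, scaled to the size of the library) was 294.35, 281.08 and 281.28 in NC and 24.28, 22.68 and 23.5 in siEIF1. Of the RPE markers, KRT18, KRT8, BEST1 and OTX2 were at 326.5, 113, 65.97 and 17.8 mean FPKM in NC. The median over the RPE markers in the counts was 3.77. Overlaps with other genes were examined for the members and not for the markers, so these levels may include reads of neighbours. Of 8 RPE markers tested, 3 were higher in siEIF1 and 0 lower (1 lower at an unadjusted p under 0.05 and 0 with DESeq2): KRT18, KRT8 and RLBP1, with log2 fold changes of 0.25, 0.24 and 1.55. Of all tested genes, 10.2% were higher and 10.4% lower. TYR, TYRP1 and PMEL, the pigment genes of mature RPE, stayed under 0.3 FPKM in both groups, and RPE65 and TTR were not found in the counts. Endothelial and leukocyte markers were at or near 0, with KDR, at 0.213 mean FPKM in NC, the highest of them. Of the fibroblast markers, PDGFRB was at 8.15 mean FPKM in NC and 12.2 in siEIF1 (log2 fold change 0.60, edgeR adjusted p = 0.00176). COL1A1 was at 0.44 and 0.54 (log2 fold change 0.33, edgeR adjusted p = 0.14), while PDGFRA and LUM were under 0.01 FPKM and DCN had 2 counts in all. The part of these markers in the results was not tested.

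After EIF1 knockdown, a minority of the members fell, by small amounts. All 59 members passed the filter on low counts, with mean counts from 423 to 58002. By the quasi-likelihood test of edgeR, with p-values adjusted by the Benjamini-Hochberg method across 16749 tested genes, 16 members (27.1%) were lower in siEIF1 at an adjusted p under 0.05, where 10.4% of all tested genes were. Only 2 members (3.39%) were higher, NOLC1 and NOB1, where 10.2% of all tested genes were. The members are well counted genes. Among the 8575 genes with at least the mean count of the least counted member, 13.2% were lower and 15.2% higher.

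The decreases were modest. In the 16 members that fell, they ran from 11.1% in FBL to 32.2% in UTP15. NC and siEIF1 libraries did not overlap in any of the 16. As these were picked by the test on the same libraries, that is no separate support. No member passed the limit of a fold change above 2 or below 0.5 used in the study's methods, neither with the edgeR test, nor at an unadjusted p under 0.05, nor with DESeq2, which called the same numbers, 16 lower and 2 higher, without that limit. Among all tested genes, 1.31% fell and 0.4% rose past it. The median log2 fold change of the 59 members was -0.12, against 0.0033 over all tested genes. Of the 59, 49 were below 0, as were 49.4% of all tested genes. Of the 41 members that did not pass, 33 were below 0, and in 13 of these the libraries of the groups did not overlap. In all, 29 members had every siEIF1 library below every NC library, and 4 had every siEIF1 library above. Over all tested genes the shares were 18.9% and 18.2%. Among the 8575 genes counted at least as well as the least counted member, 22.7% had every siEIF1 library below.

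**Figure D1:**
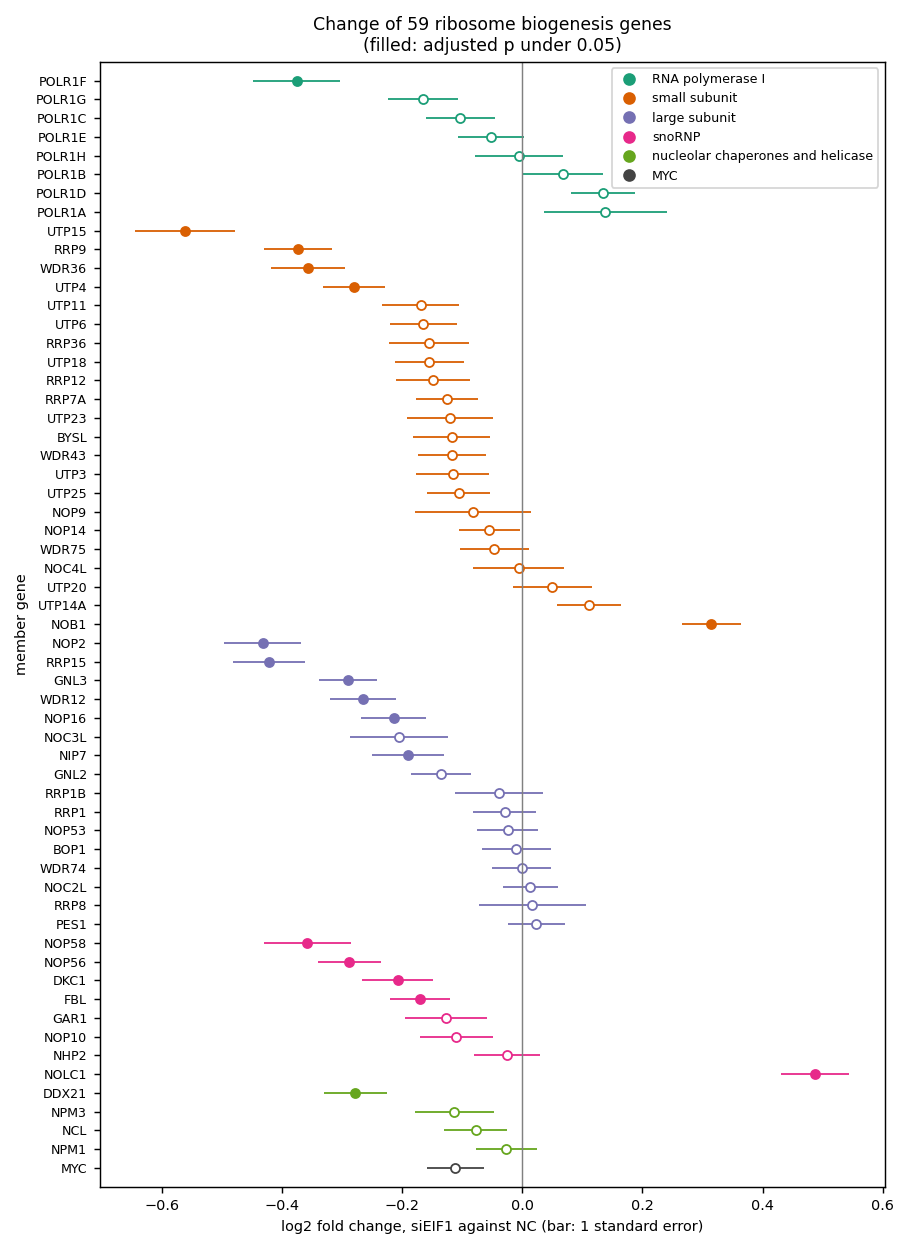
Log2 fold change (x axis, siEIF1 against NC) of each member gene (y axis), grouped by role; bars are 1 standard error and filled points had an adjusted p under 0.05. Most points lie left of 0, UTP15 lies lowest at -0.56, and NOLC1 and NOB1 are the filled points on the right.

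The shift was present in each siEIF1 library. Set against the mean of the NC libraries on the log2 scale, the median member stood at 0.040, -0.023 and -0.012 in NC replicates 1 to 3, and at -0.13, -0.13 and -0.10 in siEIF1 replicates 1 to 3. The numbers of members below the NC mean were 12, 42 and 39 in the NC and 47, 46 and 47 in the siEIF1 libraries. NC replicate 1 was thus the highest of the controls for these genes. Without it, 12 members were lower rather than 16, and the median was -0.097. The members together took between 0.715% and 0.739% of the counts in NC, and between 0.665% and 0.687% in siEIF1, so the ranges did not overlap. In bulk RNA, fewer cells that express a gene and less of its RNA in each cell cannot be told apart.

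**Figure D2:**
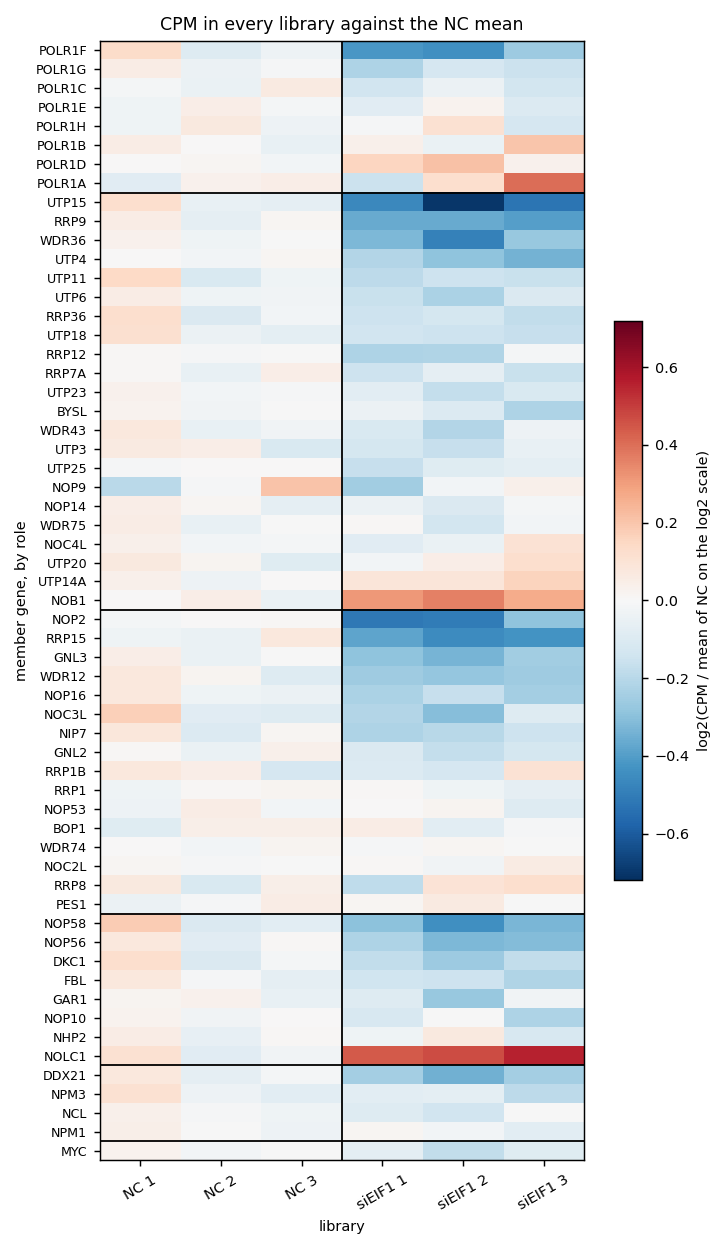
Level of each member (rows, by role) in each of the 6 libraries (columns) as log2 of CPM over the NC mean; blue is lower and red higher. The rows of UTP15, RRP9, NOP2, RRP15, NOP58 and NOP56 are blue in all 3 siEIF1 libraries, NOLC1 and NOB1 are red in all 3, and POLR1A differs between the siEIF1 libraries.

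Promoter sequence was not used in the choice by symbol. Promoter windows of 250 bases before to 50 bases after the gene start were matched for 51 of the 59 members (RefSeq, GRCh38.p14); the windows of BOP1, MYC, NOLC1, NOP58, POLR1E, RRP12, RRP1B and UTP23 were not used here. The E-box CACGTG, which reads the same on both strands, was found in 16 of 51 windows (31.4%), against 9.97% of the windows of 11225 tested genes and 7.43% of all 27305 windows. The ETS motif CCGGAAG, searched on both strands, was in 35.3% of member windows, 18.8% of those of tested genes and 10.7% of all. For the CCAAT box, searched as CCAAT on both strands, the shares were 29.4%, 36.2% and 35.7%. The palindromic motif of NRF1 was in 5.88%, 2.3% and 1.36%. Of the windows of members that fell, 4 of 15 held an E-box (26.7%), and of those of members that did not pass, 12 of 35 did (34.3%). For the ETS motif these shares were 53.3% and 28.6%, and for the CCAAT box 40.0% and 25.7%. None of these differences was tested. The motif shares were not set against promoters of genes counted as well as the members, so they cannot be read as particular to these genes. The windows below show the E-box, in capitals, in the 4 members that fell and in 4 that did not pass. They are given 5′ to 3′ on the strand of the gene.

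RRP9 (fell, chr3:51941892-51941921, reverse strand): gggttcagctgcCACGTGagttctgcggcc

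UTP4 (fell, chr16:69132621-69132650, forward strand): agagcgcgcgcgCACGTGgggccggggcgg

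NOP2 (fell, chr12:6568242-6568268, reverse strand): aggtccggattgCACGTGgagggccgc

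FBL (fell, chr19:39846356-39846385, reverse strand): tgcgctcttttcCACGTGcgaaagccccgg

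POLR1G (did not pass, chr19:45406620-45406649, forward strand): cccctttggatcCACGTGgtctgcaacctg

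UTP20 (did not pass, chr12:101280083-101280112, forward strand): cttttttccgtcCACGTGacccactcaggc

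PES1 (did not pass, chr22:30591880-30591909, reverse strand): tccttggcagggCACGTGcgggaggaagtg

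NOP10 (did not pass, chr15:34343130-34343159, reverse strand): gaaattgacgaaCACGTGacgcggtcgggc

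The motif began 5 bases before the annotated start in RRP9, 16 before it in UTP4, 12 before it in POLR1G, 10 before it in UTP20 and 11 before it in NOP10, and 35 after it in NOP2, 13 after it in PES1 and 6 after it in FBL. Among these 8 genes the log2 fold changes in siEIF1 ranged from -0.43 in NOP2 to 0.050 in UTP20. A match of letters is a description and does not show that a factor bound there.

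The RNA polymerase I genes among the members showed little change as a group. Of these 8 subunit genes, 1 fell (12.5%, against 10.4% of all tested genes). This was POLR1F (ENSG00000105849.6, chr7:19695461-19709037), a subunit of the stalk that takes part in initiation. Its level, as counts scaled to library size with TMM factors (CPM), was 42.99, 36.8 and 38.2 in NC and 29.4, 28.9 and 32.7 in siEIF1. All siEIF1 libraries lay below all NC libraries, a decrease of 22.9% (log2 fold change -0.38, standard error 0.0724, edgeR adjusted p = 0.00249). POLR1G, of the same enzyme, had 37.8, 35.4 and 36.2 CPM in NC and 31.2, 33.6 and 32.7 in siEIF1, again without overlap, but did not pass (log2 fold change -0.17, edgeR adjusted p = 0.0609). With limma on FPKM it did (adjusted p = 0.0442 and 0.0452 for pseudocounts of 0.1 and 1). POLR1G overlaps ERCC1 on the opposite strand over 1593 exonic bases, and ERCC1 had 260% of its counts with a log2 fold change of -0.0014.

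The largest catalytic subunits did not follow. POLR1A, the largest, had 71.3, 76.9 and 78.0 CPM in NC and 67.5, 81.8 and 99.6 in siEIF1, so the groups overlapped and siEIF1 replicate 3 was the highest of all (log2 fold change 0.14, edgeR adjusted p = 0.39). Without siEIF1 replicate 1 it passed, at 0.27 (edgeR adjusted p = 0.0218), and without siEIF1 replicate 3 its log2 fold change was -0.015. The second-largest subunit, POLR1B, stood at 0.068. POLR1C and POLR1D, which RNA polymerase III also uses, had log2 fold changes of -0.10 and 0.13, and POLR1E and POLR1H of -0.052 and -0.0054; none of these passed. POLR1D had 132.7, 134.2 and 131.1 CPM in NC and 147.9, 153.6 and 135.3 in siEIF1, without overlap, and passed without siEIF1 replicate 3 (edgeR adjusted p = 0.0114). POLR1C had 40.8, 39.7 and 42.98 CPM in NC and 37.4, 40.0 and 37.6 in siEIF1, where 1 siEIF1 library exceeded an NC library. Subunits that RNA polymerase I shares with both RNA polymerases II and III carry POLR2 symbols and are not members. Of these, POLR2K fell (log2 fold change -0.40, edgeR adjusted p = 0.0016), and POLR2E, POLR2F, POLR2H and POLR2L did not pass.

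Of 22 members that build the small subunit, 19 had a log2 fold change below 0, where 49.4% of all tested genes did. Of the 22, 4 fell (18.2%) and 1 rose (4.55%), with a median of -0.12. Over all tested genes 10.4% fell and 10.2% rose, and over the well counted genes 13.2% and 15.2%. The lowest of all 59 members was UTP15 (ENSG00000164338.10, chr5:73565443-73583380), a subunit of UtpA, the complex that meets the nascent precursor first. UTP15 had 22.7, 20.2 and 19.99 CPM in NC and 15.2, 12.9 and 14.5 in siEIF1. Every siEIF1 library was well below every NC library (log2 fold change -0.56, standard error 0.0825, edgeR adjusted p = 0.000362). UTP15 shares 225 exonic bases with ANKRA2 on the opposite strand, a gene with 115% of its counts and a log2 fold change of -0.052.

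The other UtpA members did not move by the same amount. UTP4 fell by 17.6% (log2 fold change -0.28, edgeR adjusted p = 0.00195), with 63.4, 62.5 and 64.0 CPM in NC and 54.6, 51.7 and 50.0 in siEIF1. WDR43 and WDR75, of the same complex, had log2 fold changes of -0.12 and -0.047 with overlapping groups, and neither passed. In UtpB, a neighbouring complex of the processome, WDR36 (ENSG00000134987.12, chr5:111092321-111130502) had 50.8, 48.7 and 49.7 CPM in NC and 39.8, 35.6 and 41.2 in siEIF1. That is a decrease of 21.9% without overlap (log2 fold change -0.36, standard error 0.0618, edgeR adjusted p = 0.00121). UTP6 and UTP18, also of UtpB, had log2 fold changes of -0.16 and -0.15 and did not pass (edgeR adjusted p = 0.0517 and 0.0782). Their groups did not overlap either. UTP6 passed with 2 other normalizations and with a filter of at least 10 counts (adjusted p from edgeR 0.0471 to 0.0495), and without siEIF1 replicate 3 (0.0282). Other subunits of these complexes are not members. In UtpA, HEATR1 and NOL11 did not pass (log2 fold change -0.011 and -0.11). In UtpB, WDR3 fell (log2 fold change -0.20, edgeR adjusted p = 0.0258, and up to 0.116 with a library left out). TBL3 did not pass (log2 fold change 0.074), and PWP2 was not tested. No test of the differences between subunits was made.

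RRP9 (ENSG00000114767.7, chr3:51933429-51941904), the protein that marks the U3 snoRNP and whose E-box window is printed above, had 40.9, 37.7 and 39.9 CPM in NC. In siEIF1 it had 30.7, 30.7 and 30.04 CPM, so the siEIF1 libraries lay close together and below the controls (log2 fold change -0.37, standard error 0.0571, edgeR adjusted p = 0.000489). The exception in this group was NOB1 (ENSG00000141101.13, chr16:69741871-69754926), the endonuclease that makes the final cut of the small-subunit rRNA in the cytoplasm. NOB1 had 104.8, 108.1 and 101.2 CPM in NC and 130.2, 134.6 and 125.9 in siEIF1, an increase of 24.4% without overlap (log2 fold change 0.31, standard error 0.0486, edgeR adjusted p = 0.000528). With each library left out in turn, its log2 fold change stayed between 0.29 and 0.34.

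The other 11 small-subunit members below 0 ranged from UTP11, at -0.17, to NOC4L, at -0.0062. UTP11 passed without NC replicate 2 (edgeR adjusted p = 0.0381). RRP12, an assembly and export factor, was at -0.15 and passed without siEIF1 replicate 3, at -0.22 (edgeR adjusted p = 0.00975). BYSL, NOP14, UTP3, UTP23, UTP25, RRP7A, RRP36 and NOP9 were also below 0 and did not pass. UTP20 and UTP14A, at 0.050 and 0.11, were above 0 and did not pass.

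Large-subunit assembly was divided. Of its 16 members, 6 fell (37.5%) and 0 rose (also 0 at an unadjusted p under 0.05 and 0 with DESeq2). Over all tested genes, 10.4% fell and 10.2% rose. Of the 10 members here that did not pass, 8 lay within 0.04 of 0 on the log2 scale. NOP2, a methyltransferase of the large-subunit rRNA and a marker of proliferating cells, had 51.6, 52.2 and 52.4 CPM in NC and 36.5, 36.8 and 42.6 in siEIF1. The decrease was 25.9%, without overlap, with siEIF1 replicate 3 nearest to the controls (log2 fold change -0.43, standard error 0.0643, edgeR adjusted p = 0.000395). Its counts are uncertain, because RP5-940J5.10 (ENSG00000285238.2), annotated on the same strand, shares 2550 exonic bases with NOP2 and had 513% of its counts. That gene was higher in siEIF1 (log2 fold change 0.28, edgeR adjusted p = 0.0384).

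RRP15 (ENSG00000067533.6, chr1:218285293-218337983), needed for the maturation of the large subunit, had 37.5, 37.1 and 40.4 CPM in NC and 29.4, 28.0 and 28.4 in siEIF1. It fell by 25.3% (log2 fold change -0.42, standard error 0.0596) and had the smallest adjusted p of the members that fell, 0.00027 by edgeR. GNL3 (ENSG00000163938.17, chr3:52681156-52694497), or nucleostemin, a nucleolar GTPase abundant in stem and cycling cells, had 147, 137.2 and 142 CPM in NC and 116.4, 112.5 and 119.5 in siEIF1. Its decrease of 18.2% had a standard error of 0.0481 on the log2 scale (log2 fold change -0.29, edgeR adjusted p = 0.000874). GNL2, its relative, stood at -0.14 (edgeR adjusted p = 0.0731).

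PES1, BOP1 and WDR12 form the PeBoW complex of large-subunit maturation, and their values differed. WDR12 had 63.9, 61.5 and 56.7 CPM in NC and 50.7, 50.0 and 50.8 in siEIF1, without overlap (log2 fold change -0.27, standard error 0.0554, edgeR adjusted p = 0.00425). PES1 and BOP1 had log2 fold changes of 0.023 and -0.010, with overlapping groups (edgeR adjusted p = 0.78 and 0.93). The difference between WDR12 and its partners was not tested.

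NOP16 and NIP7, both early assembly factors of the large subunit, fell by 13.8% and 12.4% (log2 fold change -0.21 and -0.19, edgeR adjusted p = 0.0138 and 0.0374). NOP16 did not pass without NC replicate 1 (edgeR adjusted p = 0.0564). NIP7 did not pass without NC replicate 1 or 3 or without siEIF1 replicate 1 or 2, with edgeR adjusted p up to 0.139. Both overlap genes on the opposite strand with more counts than their own, HIGD2A for NOP16 and COG8 for NIP7, and those stood at -0.0045 and 0.057. NOC3L was at -0.21 but more variable (standard error 0.081, edgeR adjusted p = 0.0944). It passed with no filter on low counts (edgeR adjusted p = 0.0361) and without siEIF1 replicate 3 (edgeR adjusted p = 0.0401). RRP1, RRP1B, RRP8, NOC2L, NOP53 and WDR74 lay between -0.039 and 0.017.

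Of the 8 snoRNP members, 4 fell (50.0%) and 1 rose (12.5%), where 10.4% and 10.2% of all tested genes did. The 1 that rose was the member that rose most of the 59. The box C/D snoRNP proteins among the members fell: NOP58, NOP56 and FBL, the methyltransferase itself. The other core protein, SNU13, which is not a member, did not pass (log2 fold change -0.082, edgeR adjusted p = 0.244). NOP58 (ENSG00000055044.11, chr2:202265736-202303661) had 128.1, 104.8 and 106.8 CPM in NC and 92.1, 83.2 and 89.7 in siEIF1, where NC replicate 1 stood above the other controls (log2 fold change -0.36, standard error 0.0719, edgeR adjusted p = 0.00331). Without NC replicate 1 its log2 fold change was -0.26. NOP56 (ENSG00000101361.17, chr20:2652593-2658393) had 204.9, 184 and 195.6 CPM in NC and 166.8, 155.5 and 156.5 in siEIF1, without overlap (log2 fold change -0.29, standard error 0.0524, edgeR adjusted p = 0.00171). FBL fell by 11.1%, the smallest decrease among the 16 (log2 fold change -0.17, edgeR adjusted p = 0.0288). It did not pass without NC replicate 1 or 2 or without siEIF1 replicate 2 or 3, with edgeR adjusted p up to 0.107.

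Of the box H/ACA proteins, 1 of 4 fell. DKC1, the pseudouridine synthase, had 103.1, 88.0 and 93.7 CPM in NC and 83.7, 79.0 and 83.9 in siEIF1, with the lowest control close to the highest knockdown library (log2 fold change -0.21, standard error 0.0595, edgeR adjusted p = 0.0249). DKC1 did not pass without NC replicate 1 or 3 or without siEIF1 replicate 2, with edgeR adjusted p up to 0.111. Its partners GAR1, NOP10 and NHP2 had log2 fold changes of -0.13, -0.11 and -0.025 with overlapping groups, and none passed. Without NC replicate 1, and likewise without siEIF1 replicate 2, 2 snoRNP members rather than 4 were lower.

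NOLC1 (ENSG00000166197.17, chr10:102152176-102163871) moved the other way. Its product is a phosphoprotein that accompanies snoRNPs between the nucleolus and Cajal bodies. NOLC1 had 110.9, 97.1 and 101.2 CPM in NC and 139.8, 142.3 and 151.3 in siEIF1, so that all knockdown libraries lay far above all controls. The increase was 40.2% (log2 fold change 0.49, standard error 0.0567, edgeR adjusted p = 5.84e-05), the smallest adjusted p of all 59 members. Leaving out each library in turn gave log2 fold changes from 0.44 to 0.54.

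Several members carry snoRNA genes between their start and end, where their place in introns was not examined. In GENCODE release 44, 8 members host at least 1 snoRNA on their own strand, among them GNL3 with 6, NOP56 with 5 and NOP58 with 4. Of these 8 hosts, 4 fell (GNL3, NOP56, NOP58 and DKC1) and 0 rose, with a median log2 fold change of -0.16. Of the 51 other members, 12 fell and 2 rose, with a median of -0.11. The shares over all tested genes were 10.4% and 10.2%. The remaining hosts, NCL, NOP53, POLR1C and WDR43, lay between -0.12 and -0.024 and did not pass.

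The most abundant nucleolar proteins differed little in RNA level. NPM1, a nucleolar chaperone of ribosomal proteins, had an FPKM of 204.85, 197.39 and 197.6 in NC and 199.72, 189.88 and 191.13 in siEIF1. The groups overlapped (log2 fold change -0.026, standard error 0.051, edgeR adjusted p = 0.77). The 12 NPM1 pseudogenes in the counts held 0.43% of the counts of NPM1. As only uniquely mapped reads were counted, reads that match NPM1 and a copy alike may be missing from both. NCL, or nucleolin, had an FPKM of 95.57, 91.92 and 92.77 in NC and 86.35, 81.69 and 94.1 in siEIF1, where only siEIF1 replicate 3 reached the controls (log2 fold change -0.077, edgeR adjusted p = 0.341). NPM3 had 38.2, 34.5 and 33.5 CPM in NC and 33.6, 33.6 and 31.0 in siEIF1 (log2 fold change -0.11, edgeR adjusted p = 0.262).

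DDX21 was the member of this group that fell. It encodes an RNA helicase that joins rRNA transcription to processing (ENSG00000165732.13, chr10:68956135-68985068). DDX21 had 130.5, 118.5 and 122.4 CPM in NC and 104.3, 97.3 and 104.6 in siEIF1, without overlap. The decrease was 17.5% (log2 fold change -0.28, standard error 0.0525, edgeR adjusted p = 0.00219).

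MYC itself did not pass. Its level was 318.7, 308.7 and 313.1 CPM in NC and 298.3, 277.1 and 295.2 in siEIF1. Every knockdown library was below every control, by 7.43% on average (log2 fold change -0.11, standard error 0.048, edgeR adjusted p = 0.125). Its estimate was close to the median of all members, -0.12.

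**Figure D3:**
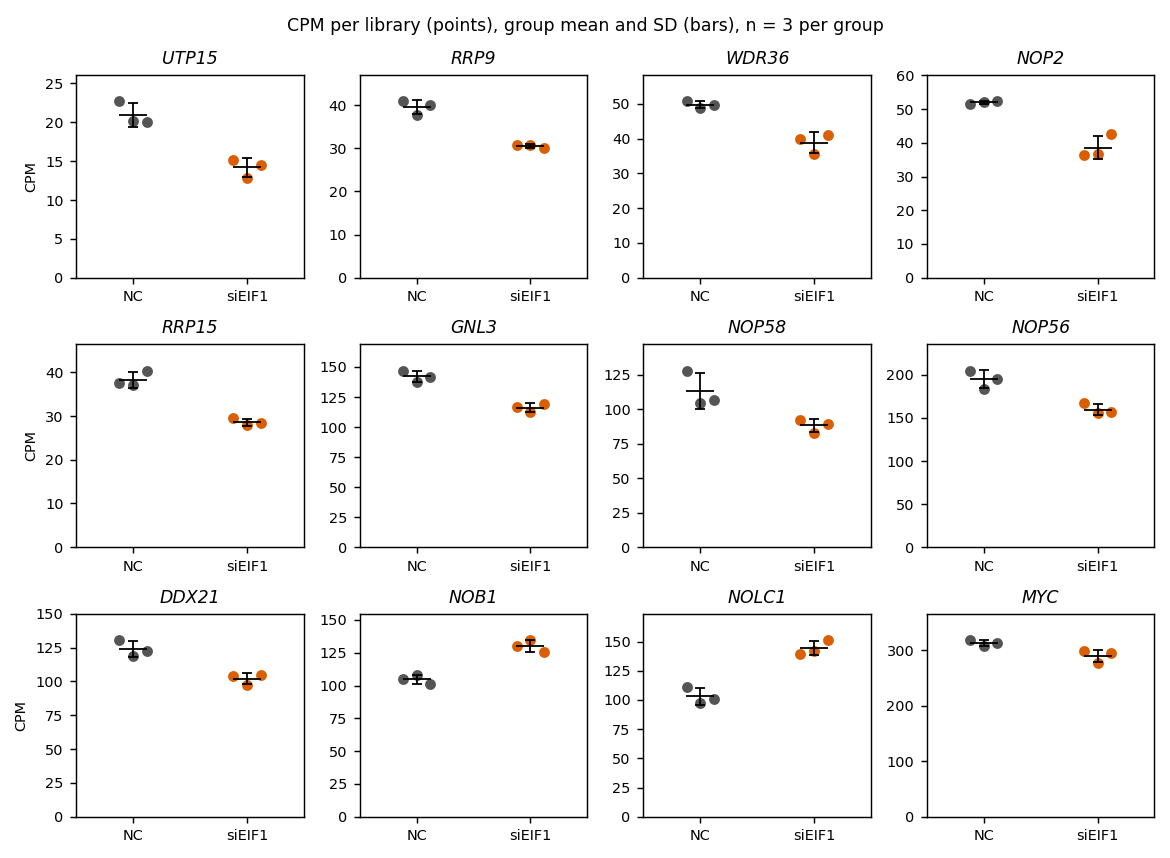
CPM (y axis, from 0) of 12 members in the 3 NC and 3 siEIF1 libraries; points are libraries, and bars the group mean with its SD. All but MYC were picked among the members that passed. The groups are apart in every panel, with siEIF1 lower except for NOB1 and NOLC1, and in MYC the gap is small beside the level.

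As FPKM, the members covered a wide range. The length by which each gene was divided is not given in the sources used here, so the order of genes may reflect it. Mean FPKM in NC ran from 2.21 in RRP8 to 200 in NPM1, with a median of 10.5. NPM1 was followed by NCL at 93.4 ± 1.91 (SD, n = 3) and NOP10 at 81.5 ± 2.00 (SD, n = 3). Subunits of RNA polymerase I had the lowest median FPKM of the role groups, 7.15, and POLR1A, its largest subunit, had 3.14 ± 0.167 (SD, n = 3). The snoRNP proteins had a median of 30.3 FPKM.

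The FPKM of members that act in the same complex were far from equal. The ranges cover only the subunits among the 59 members, and the gene lengths used for FPKM may shape them. In UtpA the FPKM of NC ran over a 6.49-fold range, from UTP15 at 2.72 to WDR43 at 17.6, and over an 8.83-fold range in siEIF1, where UTP15 was at 1.82. Over NOP58, NOP56 and FBL the range was 2.0-fold in NC and 2.28-fold in siEIF1, and the remaining box C/D protein, SNU13, had a higher mean FPKM than these 3, 62.5 in NC and 58.2 in siEIF1. In PeBoW the range was 4.62-fold and 5.65-fold, with PES1 highest and WDR12 lowest by FPKM. In CPM, which is not divided by length, WDR12 lay above BOP1 in NC (63.9, 61.5 and 56.7 against 50.6, 55.4 and 55.4). The box H/ACA core spanned 5.4-fold and 5.46-fold. Over the 59 members, the log2 fold change was nearly unrelated to the log2 mean FPKM (Pearson r = 0.15, Spearman rho = 0.05). These are genes of the same libraries and not independent replicates.

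**Figure D4:**
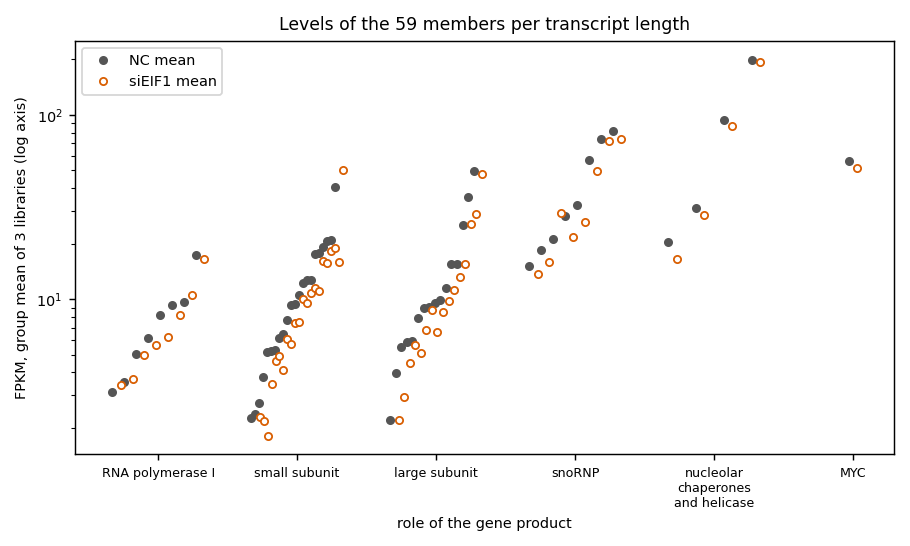
Mean FPKM of each member (y axis, log scale) in NC (filled) and siEIF1 (open), by role (x axis), with genes ordered by their NC level within a role. NPM1 lies highest at 200 in NC, RNA polymerase I subunits lie low, and NC and siEIF1 values of a gene stay close together.

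Other genes of the pathway were taken from lists written for the purpose. For each list, the shares over all tested genes to set beside its counts are 10.4% lower and 10.2% higher. Among 114 tested further biogenesis factors, 24 (21.1%) were lower and 2 (1.75%) higher, with a median log2 fold change of -0.075. The smallest p-values of those that fell were those of REXO4, an exonuclease homologue (log2 fold change -0.72, edgeR adjusted p = 1.81e-06), RRS1, a large-subunit assembly factor (-0.33), and BRIX1 (-0.33). The 2 that rose were DDX54, a helicase, and UBTF, the transcription factor that keeps ribosomal DNA open for RNA polymerase I (log2 fold change 0.25 and 0.21, edgeR adjusted p = 0.00534 and 0.00733). Without NC replicate 1 or without siEIF1 replicate 2, 10 and 9 of these factors were lower, respectively, rather than 24. Without siEIF1 replicate 1, 4 were higher.

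Of 17 tested genes of the RNA exosome and the nucleases that trim rRNA precursors, 6 (35.3%) were lower and 0 higher. At an unadjusted p under 0.05 and with DESeq2, also 0 were higher. EXOSC6, a subunit of the exosome ring, fell most. Its FPKM was 13.59, 12.92 and 13.44 in NC and 6.78, 6.57 and 8.47 in siEIF1, without overlap (log2 fold change -0.85, standard error 0.0724, edgeR adjusted p = 3.69e-06). EXOSC8 and EXOSC5 fell by 0.53 and 0.44 on the log2 scale.

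The ribosomal proteins themselves differed little. Of 80 cytosolic ribosomal protein genes, 0 were lower and 1 was higher, RPL36AL (log2 fold change 0.16, edgeR adjusted p = 0.0378). At an unadjusted p under 0.05, 2 were lower and 2 higher, and DESeq2 called 1 in each direction. Their median was -0.026, and their log2 fold changes lay between -0.16 and 0.16. Without siEIF1 replicate 3, 4 were higher, and with any other library left out 0 were. These genes have many pseudogenes, and counts of near-identical copies are uncertain.

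The subunits of RNA polymerases II and III, 23 genes, had 5 lower and 3 higher with a median of -0.022. Those with the smallest p-values that fell were POLR3G, POLR2K and POLR3K (log2 fold change -0.66, -0.40 and -0.56), and POLR2D and POLR3GL were among those that rose (0.28 and 0.30). POLR3G and POLR3GL are alternative subunits of RNA polymerase III, and they moved in opposite directions. POLR3G is typical of proliferating and undifferentiated cells. Without NC replicate 1 or 3 or siEIF1 replicate 2, 3 were lower, and without NC replicate 2 or siEIF1 replicate 2, 1 was higher.

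Among 11 tested genes of the MYC and MAX network, MXD1 fell, and MXD4 and MNT rose. All encode partners of MAX that act against MYC. The FPKM of MXD1 was 3.4, 2.37 and 2.67 in NC and 1.51, 1.24 and 1.61 in siEIF1 (log2 fold change -0.93, standard error 0.122, edgeR adjusted p = 0.000144). MXD4 had 7.56, 8.79 and 8.65 FPKM in NC and 11.38, 11.81 and 11.92 in siEIF1 (log2 fold change 0.51, standard error 0.0598, edgeR adjusted p = 6.21e-05). MNT was at 0.19 (edgeR adjusted p = 0.0435), and the number of genes higher in this network was 1 rather than 2 when any library other than NC replicate 3 was left out.

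Targets of p53, which is known to be stabilised when ribosome assembly is disturbed, moved in both directions, with more higher than lower. Of 20 tested, 8 were higher (40.0%) and 3 lower (15.0%), against 10.2% and 10.4% of all tested genes. Their median was 0.089. BTG2, TP53I3 and FDXR rose (log2 fold change 0.49, 0.63 and 0.45), and SESN2, TNFRSF10B and PLK3 fell (-0.56, -0.22 and -0.19). Without NC replicate 1 or 3 or siEIF1 replicate 1 or 2, 2 were lower. CDKN1A and MDM2, the best known targets, did not pass, at -0.15 and 0.080 (edgeR adjusted p = 0.0747 and 0.29).

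**Figure D5:**
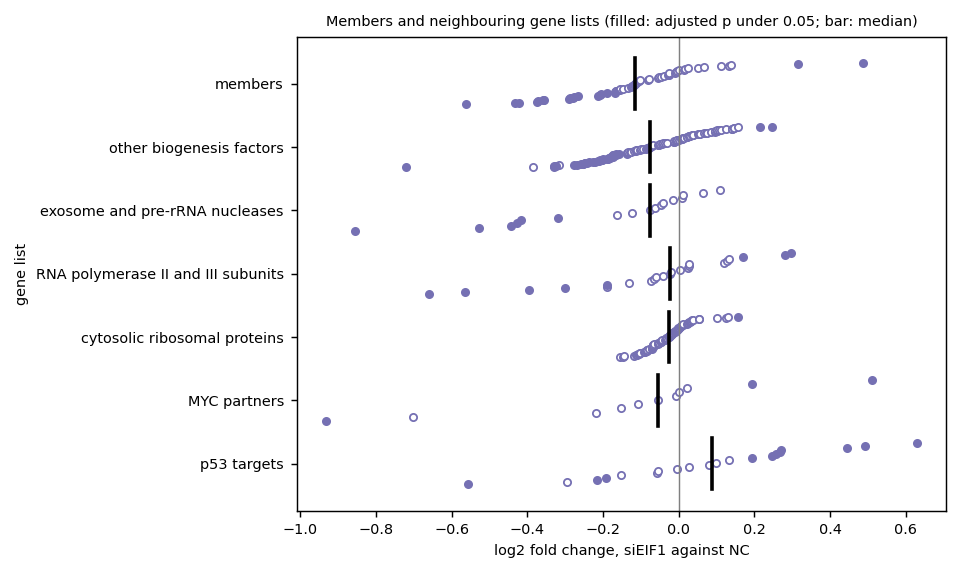
Log2 fold change (x axis, siEIF1 against NC) of each tested gene in the members and in 6 neighbouring lists (y axis); filled points had an adjusted p under 0.05 and black bars are medians. The median of the members, -0.12, is the lowest of the 7, the ribosomal proteins form a narrow band around -0.026, and the p53 targets have a median of 0.089.

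Counting could blur some of these values. Exons of 27 members overlap those of another gene in GENCODE release 44, and for 14 members the other gene had at least 10% of the counts of the member. Of these 14, 6 are among the members that passed. The libraries kept strand, but the strand setting of the counting is not given in the sources used here. NOP2 was the member with such a partner on its own strand.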

How the data were processed

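RNA-seq of 3 NC and 3 siEIF1 libraries was used, with groups and replicate numbers from the sample titles. The authors trimmed the reads with FASTX-Toolkit, aligned them to GRCh38 with HISAT2 and deposited counts of uniquely mapped reads per gene with no normalization. FPKM values, scaled to a length for each gene and to library size, were deposited as well. The counting program, its strand setting, the annotation release and the lengths used for FPKM are not given in the sources used here. Libraries held 26499929 to 31431479 counts, which gave the members standard errors from 0.0459 to 0.103 (log2).

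Counts were filtered with filterByExpr, scaled by TMM and tested with edgeR 4.0.16 (quasi-likelihood test, Benjamini-Hochberg adjustment over 16749 genes) in R 4.3.3, and standard errors were derived from the F statistic. The methods of the study used DESeq2, which was run as an alternative (1.42.0), as was limma 3.58.1 on log2(FPKM + 1) and log2(FPKM + 0.1). The tests were also run on counts simulated with the same dispersion (spread between replicates) for every gene. Real genes differ in this spread, and no result here rests on that run. Levels between genes were compared as FPKM, which depends on the length used for each gene. Libraries of a group differed by more than sampling noise (chi-square per degree of freedom 3.03 to 14.1), so none was counted as a repeat. Gene coordinates and overlaps came from GENCODE release 44, matched by gene ID, and promoter windows from RefSeq. Of 59 ID versions, 48 were the same.

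The members, role groups, motifs and lists were chosen with earlier results of these data known. Values in every library are given for EIF1, MYC, the 3 members with the highest FPKM and up to 4 members per role with the smallest p, and up to 3 genes per direction are named from each other list. UTP4, FBL, UTP20, PES1, NOP16, NIP7, POLR1A, POLR1B, CDKN1A and MDM2 were described in more detail after their values were seen.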

Additional observations from a re-analysis of the deposited data

How the results depend on the processing

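Under 2 other normalizations, 2 other filters, DESeq2 and limma on FPKM, from 15 to 17 members were lower and 2 higher, and the median log2 fold change of the members stayed between -0.13 and -0.12. With an adjusted p under 0.01, 12 were lower and 2 higher. Removal of a trend with length and GC content, chosen after seeing the data, gave a median of -0.10. With each library left out in turn, 12 to 18 members were lower, 2 or 3 higher, and the median ran from -0.134 to -0.0972. Of the 18 members that passed, 14 did so in every setting at an adjusted p of 0.05, and none changed sign in any of them. With the replicate number as a block, 21 members were lower and 3 higher: UTP11, UTP6, UTP18, NOC3L, GNL2 and POLR1D passed in addition. Each library's deviations correlated best with those of the same-numbered library, but with 0.0946 for replicate 2, so the numbers were not taken to pair the samples. No member passed a fold limit of 1.5. Of the 6 neighbouring lists, 5 had a median below 0; with a library left out, the number ran from 3 to 5, with 3 without siEIF1 replicate 3, and the cause was not tested.

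With limma on FPKM, NIP7 and DKC1 did not pass and POLR1G did, and 15 (pseudocount 0.1) and 14 (pseudocount 1) of the further biogenesis factors were lower rather than 24.

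Members near 0 changed sign in some settings without passing. NOC2L was at -0.0073 and -0.00685 and RRP8 at -0.00806 and -0.00498 with limma on FPKM (pseudocounts 0.1 and 1), and WDR74 was at 0.00015 with at least 10 counts in every library. With a library left out, log2 fold changes ran from -0.0649 to 0.0487 for POLR1H, -0.0041 to 0.121 for POLR1B, -0.0148 to 0.267 for POLR1A, -0.174 to 0.028 for NOP9, -0.0639 to 0.0308 for NOC4L, -0.113 to 0.00261 for RRP1B, -0.0464 to 0.00913 for NOP53, -0.0518 to 0.0224 for BOP1, -0.0171 to 0.0106 for WDR74, -0.00906 to 0.033 for NOC2L, -0.0419 to 0.109 for RRP8 and -0.0745 to 0.0194 for NHP2.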
